A study of Mus musculus with 1104 samples.

Results

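The comparison set gastrocnemius muscle after 3 days of a high-fat diet against gastrocnemius muscle at the start of that diet, called 0 days. It used 12 of the 1104 RNA-seq libraries of a time course in mouse organs, 6 per time point. They were picked by the organ and time point in their labels, and every expressed gene was examined. All mice were male, wild type C57BL/6 animals that received the diet D12492, with 60 kcal% fat, from an age of 8 weeks. The 0 day group had not yet eaten it, and the other group had eaten it for 3 days. The labels name no batch, cage or hour of dissection. Age-matched mice on another diet were not analysed here. Diet, age and dissection day therefore cannot be told apart. The 6 libraries of a group are labelled as replicates without a note on whether they are separate mice. In the main fit p-values measure only the spread between libraries of the same time point, taken over all 84 gastrocnemius libraries.

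The gastrocnemius is the large calf muscle and in mice consists mostly of fast fibres, which use glycogen, glucose and fatty acids as fuel. When fat is plentiful, fibres take up fatty acids through CD36 and carry them on the binding protein FABP3. Part is kept in lipid droplets, and the rest is oxidised in mitochondria, where acyl-CoA dehydrogenases and their partner enzymes shorten the chain step by step. Nuclear receptors of the PPAR family bind fatty acids and switch on many of these genes. A whole muscle also holds nerve branches whose Schwann cells make myelin, the tendon and its matrix-making cells, vessels, fibroblasts and immune cells.

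The 12 libraries held 13867905 to 18766540 counts (median 15732259.5) and 14609 to 15459 genes with a count. Levels are given as CPM, counts scaled to library size, for the lowest, the median and the highest of the 6 libraries of a group. The tissue label held: the 16 myofibre markers summed to 192000 to 239000 CPM at 0 days and to 189000 to 218000 CPM at 3 days, while 12 liver and gut genes summed to at most 1.26 CPM. Transcripts of mitochondrial genes took 8.88% to 9.69% of the counts at 0 days and 10.1% to 12.9% at 3 days, without overlap. Their part in the results was not tested. Replicate 2 of 0 days stood apart by its lymphocyte markers (Cd3e, Cd79a, Ms4a1 and others), which summed to 82.0 CPM there. In the other 5 libraries of 0 days they summed to 1.1 to 3.24 CPM and at 3 days to 1.77 to 3.33 CPM. The count of calls and several lists and genes are therefore given with and without replicate 2, and other values only with it. At 3 days replicates 3 and 5 also stood apart. Their counts differed from the other libraries of that group by a chi-square per degree of freedom of 26.754 to 31.646. It was 6.254 to 8.654 among those others and 11.428 between replicates 3 and 5. They had the highest mitochondrial shares of that group (11.9% and 12.9%) and the lowest shares of the most abundant gene (5.27% and 5.11%). The cause was not tested.

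After 3 days, 71 genes had risen and 200 had fallen of 13104 tested (adjusted p under 0.05, edgeR), which is 2.07% of the genes, 0.542% higher and 1.53% lower. Of the gene lists examined, those with the most genes that rose were fatty acid oxidation (6 of 28 members) and endoplasmic reticulum stress (3 of 25), and those with the most that fell were Schwann cell markers (9 of 11), tendon markers (5 of 10), the extracellular matrix (4 of 30) and amino acid metabolism (3 of 26). The median log2 fold change was 0.45 among genes that rose and -0.69 among genes that fell, against -0.03 over all genes. A change of at least 2-fold was found in 4 of the genes that rose and 66 of those that fell. In 48 of the 71 and 99 of the 200 the 6 libraries of one time point lay apart from the 6 of the other, as they did in 7.96% of all genes tested (3 days above in 4.49%, below in 3.46%).

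The number and the balance of calls depended on the libraries that set the spread and on offsets for transcript length and GC content. The fit took the spread from all 84 gastrocnemius libraries, whose biological coefficient of variation was 25.93%. In these 12 libraries fitted alone it was 14.17%, and that fit called 1153 higher (9.34%) and 1124 lower (9.1%) of 12351, or 18.4%. Genes that rose made up 26.2% of the calls in the first, 50.6% in the second and 51.3% when offsets for transcript length and GC content were added. Of the 271 calls 255, all 71 higher ones and 184 lower ones, were also made by the 12 libraries alone. With 1 library fewer the calls numbered 160 and 171 without replicates 4 and 6 of 0 days and 125 and 172 without replicates 3 and 5 of 3 days. Without replicate 2 of 0 days 213 of the 271 were called (51 higher, 162 lower). Among the genes that fell, 13 had a level there at least 3 times that of every other library (Btla, Traf1, Unc13d and others, known from immune cells). None of these 13, a set picked by that value, was called without it.

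**Figure D1:**
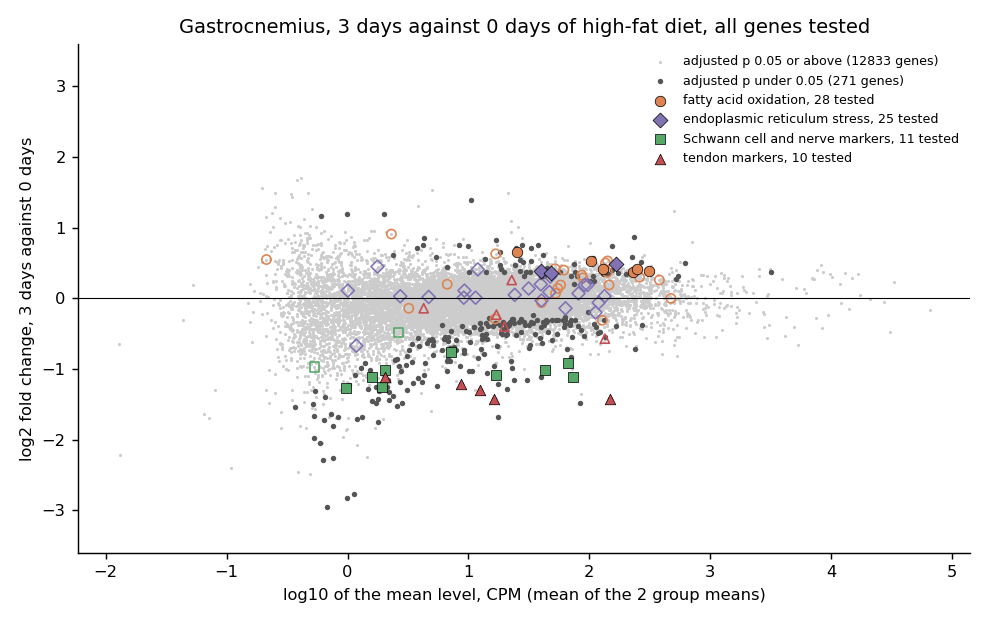
Log2 fold change of each of the 13104 tested genes between 3 days and 0 days (vertical axis) against log10 of its mean level in CPM (horizontal axis). Grey dots did not pass, dark dots passed, and coloured symbols are members of 4 lists, filled where they passed. The 9 Schwann cell and 5 tendon genes that fell lie at or below -0.76, while the 6 fatty acid oxidation genes that rose lie between 0.37 and 0.66.

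Fatty acid oxidation had the most genes that rose of any list. Of 28 members tested 6 rose and none fell, 24 had a positive log2 fold change, and the median was 0.35 against -0.03 over all genes. In 14 members all 6 libraries of 3 days lay above all 6 of 0 days, beside 4.49% of all genes tested. Decr1, the reductase that prepares unsaturated fatty acids for oxidation (chromosome 4, 15917240 to 15945507, minus strand of GRCm38), had 73.6, 84.8 and 92.1 CPM at 0 days and 111, 117 and 140 CPM at 3 days. Every library of 3 days was thus above every library of 0 days, and the log2 fold change was 0.53 ± 0.11 (SE; adjusted p = 0.0026).

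The dehydrogenases of long chains moved in the same direction. Acadl, which takes the first step on long-chain acyl-CoA (chromosome 1, 66830839 to 66863277, minus strand), stood at 169, 206 and 220 CPM and then at 230, 259 and 292 CPM, a log2 fold change of 0.37 ± 0.08 (adjusted p = 0.0024). Acadvl, the very-long-chain dehydrogenase (chromosome 11, 70010183 to 70015411, minus strand), went from 234, 272 and 295 to 332, 351 and 370 CPM (0.39 ± 0.09, adjusted p = 0.0091). Neither pair of groups overlapped, and the calls of Decr1, Acadl and Acadvl held without each of the 12 libraries in turn. Acadl missed the threshold when offsets for GC content and length were added (0.23, adjusted p = 0.5).

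Further members passed less firmly. Hadhb, the thiolase subunit of the trifunctional protein, had 175, 220 and 238 CPM and then 255, 284 and 308 CPM (0.41 ± 0.11, adjusted p = 0.025). Etfdh, which hands electrons from these dehydrogenases to ubiquinone, rose by 0.41 ± 0.11 (adjusted p = 0.036) and was picked after its values were seen, to complete the count. Acot2, a mitochondrial thioesterase that frees fatty acids from CoA, rose by 0.66 ± 0.19 (adjusted p = 0.04). Its near-identical neighbour Acot1 may share its reads. The calls of Hadhb, Etfdh and Acot2 were lost in 5, 7 and 8 of the 12 fits that left out 1 library, with adjusted p up to 0.084, 0.1 and 0.13. Members called of the list fell from 6 to 3 without replicate 1 or 2 of 0 days or replicate 3, 4 or 5 of 3 days, and its median stayed between 0.30 and 0.37. With offsets for GC content and length 8 members rose, and Acadl, Hadhb, Etfdh and Acot2 were not among them.

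Around oxidation, lipid droplet and uptake genes were less uniform. Plin5, a coat protein that ties lipid droplets to mitochondria (chromosome 17, 56111601 to 56117596, minus strand), had 14.2, 22.9 and 24.8 CPM at 0 days and 27.0, 36.4 and 40.5 CPM at 3 days, with no overlap. Its log2 fold change was 0.76 ± 0.20 (adjusted p = 0.025), and the call was lost without replicate 1 or 2 of 0 days or replicate 4 of 3 days (adjusted p 0.062 to 0.077). Plin5 and Acot2 were the 2 that rose of 17 PPAR target genes, whose median was 0.02. None of the 17 was called without replicate 2 of 0 days. Of 20 genes of fatty acid uptake and handling none passed.

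Fabp3, the fatty acid binding protein of muscle, had the largest log2 fold change among those 20 uptake genes and did not pass. Its levels were 244, 296 and 365 CPM at 0 days and 584, 708 and 856 CPM at 3 days, so that the lowest library of 3 days was above the highest of 0 days. The log2 fold change of 1.24 ± 0.43 had an adjusted p of 0.13 in the fit of all time points, where single libraries of 2, 3 and 10 weeks reached 6610, 7510 and 7530 CPM. In the 12 libraries alone it was 1.25 ± 0.11 with an adjusted p of 5e-05. Cd36, the fatty acid transporter, had 260, 316 and 325 CPM and then 335, 375 and 424 CPM (0.29, adjusted p = 0.14, and 0.011 in the 12 libraries alone).

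Genes often used as a readout of fat in muscle did not pass at 3 days. Pdk4, the kinase that shuts off pyruvate dehydrogenase, had a log2 fold change of 0.09, the uncoupling protein gene Ucp3 of 0.02 and the lipase inhibitor gene Angptl4 of 0.68 (adjusted p = 0.28). Angptl4 ranged from 0.52 to 0.98 in the 12 fits with 1 library fewer, at adjusted p from 0.08 to 0.59. Cpt1b, the gate of fatty acids into mitochondria, stood at -0.14. These 4 are among 31 genes given whatever their values, of which 1 was called and the other 30 had adjusted p from 0.082 to 0.99; 10 of the 31 were called in the 12 libraries alone.

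None of the 34 nuclear genes of the respiratory chain passed, yet 33 had a positive log2 fold change, with a median of 0.30 against -0.03 over all genes, or 0.16 with offsets for GC content and length. In 22 of the 34 every library of 3 days was above every library of 0 days, beside 4.49% of all genes. In the 12 libraries alone 23 of the 34 were higher and none lower. Cycs, cytochrome c, had 205, 225 and 238 CPM at 0 days and 284, 317 and 429 CPM at 3 days, apart from each other, with 0.61 ± 0.38 (adjusted p = 0.52) in the fit of all time points and 0.61 ± 0.09 (adjusted p = 0.0012) in the 12 libraries alone. The 13 genes of the mitochondrial genome (median 0.28, or -0.10 with those offsets) had no call. Neither had 29 ribosomal protein genes (median 0.25, or 0.14 with offsets), which share reads with pseudogenes. In 17 of these 29 every library of 3 days was above every library of 0 days, and in 1 below. In the 12 libraries alone 17 of the 29 were higher and 1 lower. None of 20 genes of fatty acid synthesis passed (median -0.33, or -0.17 and 1 lower with offsets). Without replicate 2 of 0 days their median was -0.19. In the 12 libraries alone 7 of the 20 were lower and none higher. None of 22 genes of cholesterol synthesis (median -0.18, or -0.07 with offsets), 22 of glucose uptake and glycolysis (0.02) or 28 of insulin signalling (-0.03) passed. The same held for 20 regulators of mitochondrial biogenesis, 17 myogenic genes, 17 secreted muscle factors, 23 oxidative stress genes and 13 cold-inducible and thermogenic genes. Srebf1, the regulator of lipid synthesis, had -0.65 (adjusted p = 0.074), Pfkm, phosphofructokinase, -0.38 (0.11), the glucose transporter gene Slc2a4 -0.24, hexokinase gene Hk2 -0.46 and the coactivator gene Ppargc1a -0.25.

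**Figure D2:**
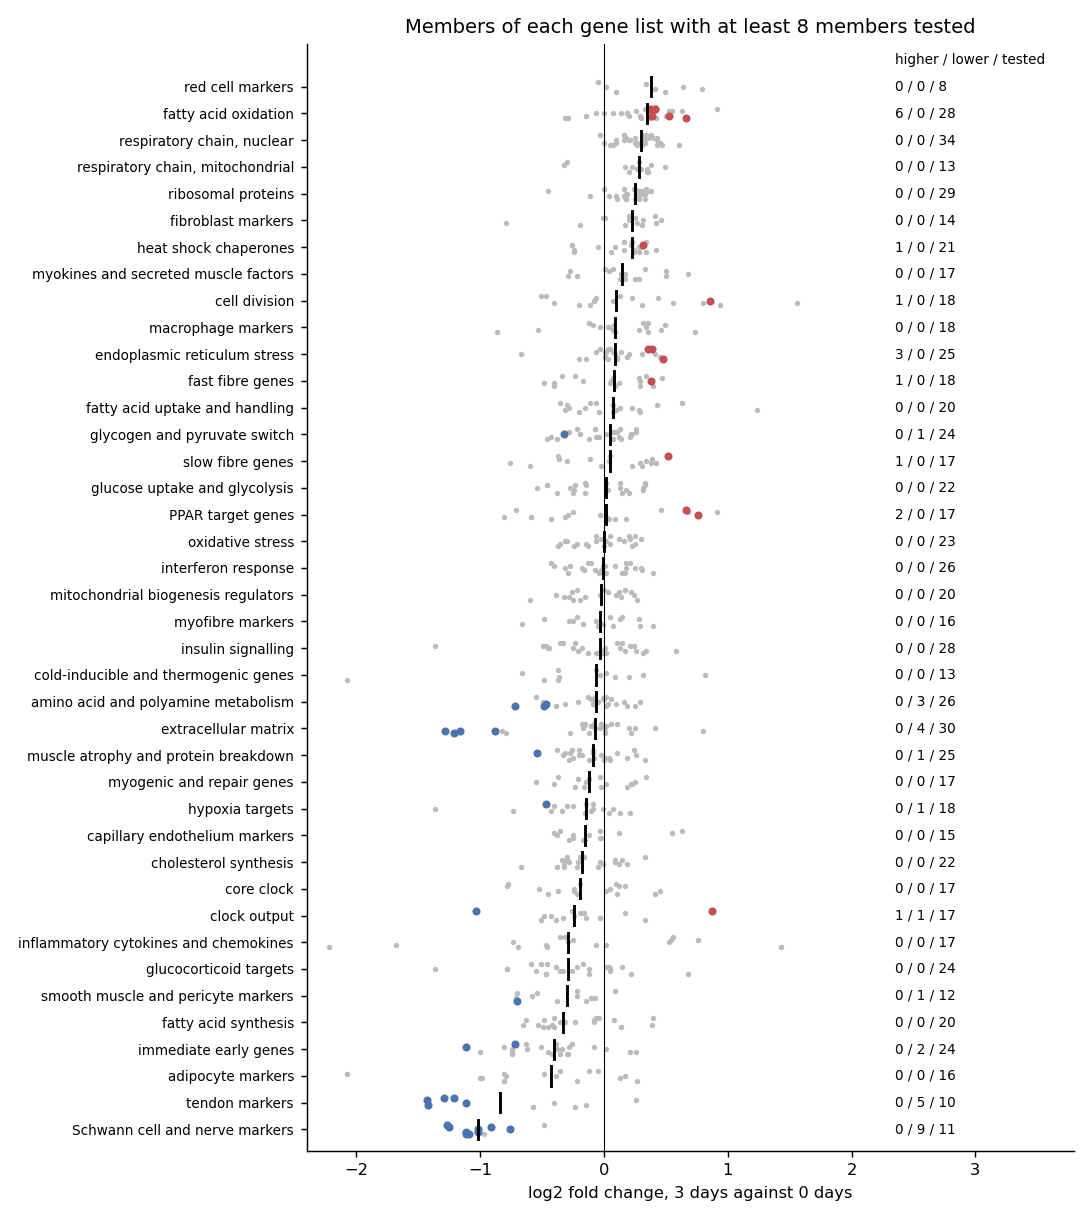
Log2 fold change between 3 days and 0 days (horizontal axis) of every tested member of each list with at least 8 such members (1 row per list, ordered by its median, the black bar). Grey members did not pass, coloured members rose or fell, and the numbers give members higher, lower and tested. Schwann cell markers (0, 9 and 11) and tendon markers (0, 5 and 10) have the lowest medians and fatty acid oxidation (6, 0 and 28) the most members that rose.

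Chaperones of the endoplasmic reticulum rose in a small group. Of 25 genes of the list 3 rose and none fell, with a median of 0.09, and the same count of 3 was found without each of the 12 libraries. Hspa5, the chaperone BiP (chromosome 2, 34771970 to 34777547, plus strand), had 127, 138 and 155 CPM and then 176, 188 and 220 CPM, and Dnajc3, its partner of the J-domain family (chromosome 14, 118937976 to 118981697, plus strand), had 37.5, 41.8 and 47.5 CPM and then 49.6, 53.6 and 58.3 CPM. For both genes all 6 libraries of 3 days lay above those of 0 days, with log2 fold changes of 0.48 ± 0.11 (adjusted p = 0.0098) and 0.36 ± 0.06 (adjusted p = 0.00024). Pdia6, a disulfide isomerase (chromosome 12, 17266545 to 17284770, plus strand), rose from 30.5, 32.9 and 40.4 to 38.4, 45.2 and 49.3 CPM, with an overlap of the groups (0.39 ± 0.09, adjusted p = 0.0057).

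The promoters of these 3 genes are shown because each holds the endoplasmic reticulum stress element, CCAAT and CCACG with 9 bases of any kind between them. It was searched on both strands and was chosen after the values and sequences were seen. The sequences are the 250 bases before the RefSeq start site on GRCm38.p6, written 5′ to 3′ along the gene, with the element in capitals. They are chr2:34771840-34772089 for Hspa5, chr14:118937682-118937931 for Dnajc3 and chr12:17266339-17266588 for Pdia6, all on the plus strand. The start sites differ from the gene starts given above, which are from GENCODE.
Hspa5: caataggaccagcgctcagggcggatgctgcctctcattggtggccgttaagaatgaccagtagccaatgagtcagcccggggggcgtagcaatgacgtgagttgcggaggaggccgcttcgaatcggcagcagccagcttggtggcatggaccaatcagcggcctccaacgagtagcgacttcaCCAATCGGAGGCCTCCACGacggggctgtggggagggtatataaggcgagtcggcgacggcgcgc
Dnajc3: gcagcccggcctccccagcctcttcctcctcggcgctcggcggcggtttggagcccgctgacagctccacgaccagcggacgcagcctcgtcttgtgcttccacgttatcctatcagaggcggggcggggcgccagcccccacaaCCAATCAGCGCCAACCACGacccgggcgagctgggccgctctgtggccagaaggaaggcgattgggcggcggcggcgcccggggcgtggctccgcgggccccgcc
Pdia6: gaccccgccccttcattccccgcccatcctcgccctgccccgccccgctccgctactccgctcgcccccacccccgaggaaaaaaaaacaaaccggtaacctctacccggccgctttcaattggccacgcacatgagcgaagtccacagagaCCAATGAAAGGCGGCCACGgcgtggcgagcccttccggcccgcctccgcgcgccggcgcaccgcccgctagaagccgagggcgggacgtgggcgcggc
The element began 65, 105 and 98 bases before the start site, in this order. Windows ran from 250 bases before to 50 after a start site, and 55 of the 71 genes that rose and 157 of the 200 that fell had one. The element was found in 3 of the 78 windows of genes that rose (3.85%), in none of the 208 of genes that fell and in 39 of all 32851 (0.119%). Those 3 are the windows shown. As the element was chosen after they were seen, its shares are no test of enrichment. All windows also include those of genes not tested here. AGGTCA, which nuclear receptors bind, was in 21.8% of the windows of genes that rose, 8.65% of those that fell and 16.3% of all. The direct repeat of AGGTCA with 1 base between the copies, bound by PPAR with its partner RXR, was in none of the windows of called genes and 0.0396% of all. A match describes these letters and is no evidence of binding.

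Other chaperone and membrane genes rose as well. Tmx2, a thioredoxin-like protein of the endoplasmic reticulum membrane (chromosome 2, 84671316 to 84679140, minus strand), had 22.2, 24.6 and 28.3 CPM and then 34.9, 40.3 and 49.5 CPM. The groups were apart, and its log2 fold change of 0.71 ± 0.09 had the smallest p of all genes that rose (adjusted p = 9.9e-07). Of 21 heat shock chaperones 1 rose, Dnaja1 (0.32 ± 0.09, adjusted p = 0.036), a call lost in 9 of the 12 fits with 1 library fewer. Of the 21, 17 had a positive log2 fold change, with a median of 0.23 against -0.03 over all genes. In the 12 libraries alone 9 of them were higher and 1 lower, beside 9.34% higher and 9.1% lower of all genes.

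Further genes that rose belonged to none of the lists. Slc38a4, an amino acid transporter (chromosome 15, 96994820 to 97055956, minus strand), had 97.0, 118 and 132 CPM and then 164, 180 and 260 CPM (0.74 ± 0.14, adjusted p = 0.00081), with no overlap. The sarcoglycan gene Sgcd rose by 0.83 ± 0.15 with an overlap of the groups, and Ctnna3, a catenin of cell junctions in muscle, by 0.76 ± 0.15 without one. Angpt1, angiopoietin 1 of vessel growth, rose by 0.74 ± 0.16 and the zinc transporter gene Slc30a2 by 0.71 ± 0.16. Rev3l, a subunit of the DNA polymerase that copies damaged DNA, rose by 0.75 ± 0.19, a call lost without replicate 4 of 0 days (adjusted p = 0.059) or replicate 3 of 3 days (0.063).

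Tfrc, the transferrin receptor through which cells import iron (chromosome 16, 32608920 to 32632794, plus strand), ranged widely at 0 days, with 101, 171 and 221 CPM, and narrowly at 3 days, with 288, 303 and 318 CPM. The groups were apart, but the call (0.87 ± 0.24, adjusted p = 0.033) was lost in 8 of the 12 fits with 1 library fewer, at adjusted p up to 0.12. Kcnf1, a potassium channel subunit, had the largest log2 fold change among genes that rose with at least 5 CPM on average, 1.39 ± 0.39 (adjusted p = 0.034). Replicate 6 of 3 days had 32.3 CPM of it beside a group median of 12.9 CPM, and without that library the value was 1.03 (adjusted p = 0.2). Of the 12 fits with 1 library fewer, 8 lost the Kcnf1 call. The calcium-binding proteins of the store, Casq1 of fast fibres (0.38 ± 0.11, adjusted p = 0.044) and Casq2 of slow fibres (0.52 ± 0.14, adjusted p = 0.029), were the single calls among 18 fast and 17 slow fibre genes. Of the 12 fits, 10 lost the Casq1 call and 6 the Casq2 call. Myosin heavy chains did not pass: Myh4 had -0.17, Myh2 -0.40, Myh1 -0.40 and Myh7 -0.60.

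Few enzymes of amino acid metabolism passed. Of 26 genes of amino acid and polyamine metabolism 3 fell and none rose (median -0.06 against -0.03 over all genes), and 2 or 3 were called without each library in turn. Ivd, which oxidises the leucine product isovaleryl-CoA (chromosome 2, 118861954 to 118882909, plus strand), had 117, 143 and 162 CPM and then 85.5, 102 and 116 CPM, all libraries of 3 days lying below those of 0 days (-0.47 ± 0.10, adjusted p = 0.0053). Bcat2, the transaminase that opens branched-chain amino acid breakdown, had 43.1, 54.0 and 59.8 CPM and then 31.2, 37.8 and 45.4 CPM, with an overlap (-0.48 ± 0.11, adjusted p = 0.0079).

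The third, Prodh, proline dehydrogenase, had -0.72 ± 0.19 (adjusted p = 0.031), a call lost in 8 of the 12 fits with 1 library fewer, at adjusted p up to 0.17. Outside the list, Aldh2, the mitochondrial aldehyde dehydrogenase (chromosome 5, 121566027 to 121593824, minus strand), fell from 123, 133 and 155 to 88.2, 99.2 and 105 CPM (-0.49 ± 0.08, adjusted p = 0.00017), and all 6 libraries of 3 days were below all 6 of 0 days. Oplah, which cleaves 5-oxoproline in the glutathione cycle, fell by 0.33 on the log2 scale (adjusted p = 0.001), but it did not pass with offsets for GC content and length (-0.10, adjusted p = 0.76). The histone methyltransferase gene Ezh1 (chromosome 11, 101191115 to 101226463, minus strand) had the smallest p of all genes that fell, with 39.2, 46.9 and 52.7 CPM and then 29.0, 30.8 and 36.1 CPM (-0.56 ± 0.08, adjusted p = 2.6e-05), again without overlap. Sorl1, a sorting receptor of the endosome, fell by 0.45 on the log2 scale (adjusted p = 0.00057) and missed the threshold with those offsets (-0.25, adjusted p = 0.66).

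**Figure D3:**
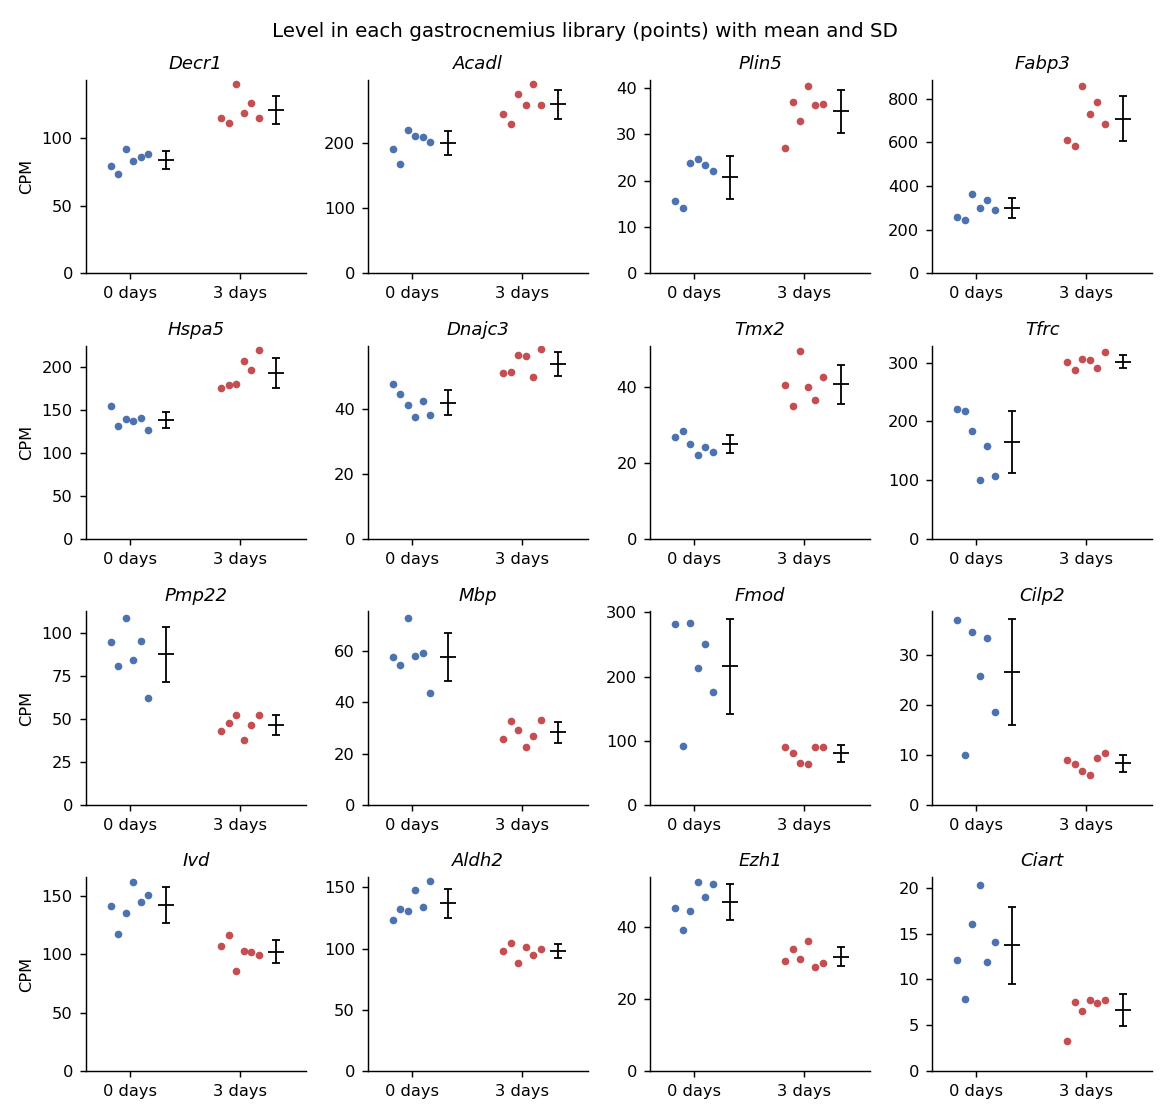
Level in CPM (vertical axis, from 0) of 16 genes in each of the 6 libraries at 0 days and the 6 at 3 days (points), with the mean and SD of each group beside them. The groups lie apart in every panel except Cilp2, where the lowest library of 0 days has 10.1 CPM and the highest of 3 days 10.4 CPM; in Fmod these are 91.2 and 91.1 CPM.

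Most Schwann cell markers fell. Of 11 Schwann cell and nerve markers tested (of 12) 9 fell, none rose and all 11 had a negative log2 fold change, with a median of -1.02 against -0.03 over all genes. Pmp22, a membrane protein of myelin (chromosome 11, 63128982 to 63159547, plus strand), had 62.0, 89.6 and 109 CPM at 0 days and 37.6, 47.0 and 52.4 CPM at 3 days, a log2 fold change of -0.91 ± 0.16 (adjusted p = 0.00039). Mbp, myelin basic protein, had 43.4, 57.8 and 72.7 CPM and then 22.5, 28.0 and 33.1 CPM (-1.02 ± 0.18, adjusted p = 0.00057). The groups were apart for both genes, and so they were for Prx, periaxin, which anchors myelin to the matrix (-1.09 ± 0.24). Mal, a myelin proteolipid that was not on the list, fell by 1.24 on the log2 scale (adjusted p = 0.00057).

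Further members that fell had few reads. Ncmap (-1.25, adjusted p = 0.017), Sox10 (-1.02, 0.02), Mag (-1.27, 0.019) and S100b (-1.11, 0.045) are named after their values were seen. Their medians were 2.74, 2.53, 1.39 and 2.28 CPM at 0 days and 1.14, 1.29, 0.544 and 1.02 CPM at 3 days, in that order. The summed level of the 12 markers was 210, 296 and 370 CPM at 0 days and 119, 144 and 170 CPM at 3 days, and no library of either group reached the range of the other. The calls of Mbp, Pmp22 and Prx held without each library in turn, while S100b lost its call in 11 of the 12 fits (adjusted p up to 0.11), Sox10 in 5 (up to 0.082), and Ncmap and Mag in 2 each. Of the list 9 members were called without replicate 2 of 0 days and 5 without replicate 1 of 3 days, the lowest count of the 12 fits. In whole muscle fewer cells of a type and less RNA per cell cannot be told apart, and how much nerve each dissected piece held was not tested.

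Tendon genes fell as well. Of 10 tendon markers 5 fell and none rose, with a median of -0.84, and 5 were called without each of the 12 libraries. Fmod, fibromodulin, which regulates collagen fibrils (chromosome 1, 134037254 to 134048277, plus strand), had 91.2, 232 and 284 CPM at 0 days and 64.5, 85.1 and 91.1 CPM at 3 days (-1.43 ± 0.25, adjusted p = 0.00044). The lowest library of 0 days, replicate 2, stood beside the highest of 3 days, while the other 5 lay well above. Chad, chondroadherin, a matrix protein that binds collagen, had medians of 24.3 and then 9.36 CPM (-1.42 ± 0.30). Comp, a matrix protein of tendon and cartilage, had 7.79, 18.3 and 25.3 CPM and then 6.25, 6.58 and 9.81 CPM (-1.29 ± 0.27), and for both genes the groups overlapped.

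The other members that fell were Tnc, tenascin C (-1.21 ± 0.28), and the tendon transcription factor gene Mkx (-1.11 ± 0.26). Defining markers of tendon cells did not pass: Tnmd, tenomodulin, had -0.23 (adjusted p = 0.8) and Scx, scleraxis, -0.14 (adjusted p = 0.9), with overlapping groups. Mkx, Tnmd and Scx were picked after their values were seen. The summed tendon list was 262, 522 and 651 CPM at 0 days, or 402, 567 and 651 CPM without replicate 2, and 223, 284 and 318 CPM at 3 days. Whether the pieces held different amounts of tendon was not tested.

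Some matrix genes outside the tendon list fell. Cilp2, a matrix protein of cartilage and tendon (chromosome 8, 69880369 to 69887687, minus strand), had the lowest log2 fold change among genes that fell with at least 5 CPM on average, -1.68 ± 0.29 (adjusted p = 0.00039). Its levels were 10.1, 29.7 and 37.0 CPM and then 6.11, 8.65 and 10.4 CPM. The secreted factor gene Angptl7 fell from 28.8, 131 and 172 to 30.5, 36.8 and 69.6 CPM (-1.48 ± 0.27, adjusted p = 0.00057), and its lowest library of 0 days was again replicate 2. Of 30 genes of the extracellular matrix 4 fell and none rose, with a median of -0.07, near that of all genes. Col12a1, a fibril-associated collagen (-1.28 ± 0.29), Thbs1, thrombospondin 1 (-1.16 ± 0.28), and Lox, which crosslinks collagen (-0.88 ± 0.18), fell with Tnc, and the Thbs1 call was lost without replicate 3 of 3 days (-1.03, adjusted p = 0.058). With offsets for GC content and length the median of this list was 0.11. Ccn2, a matricellular gene that responds to stretch, fell by 1.11 on the log2 scale (adjusted p = 0.0039) with an overlap.

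**Figure D4:**
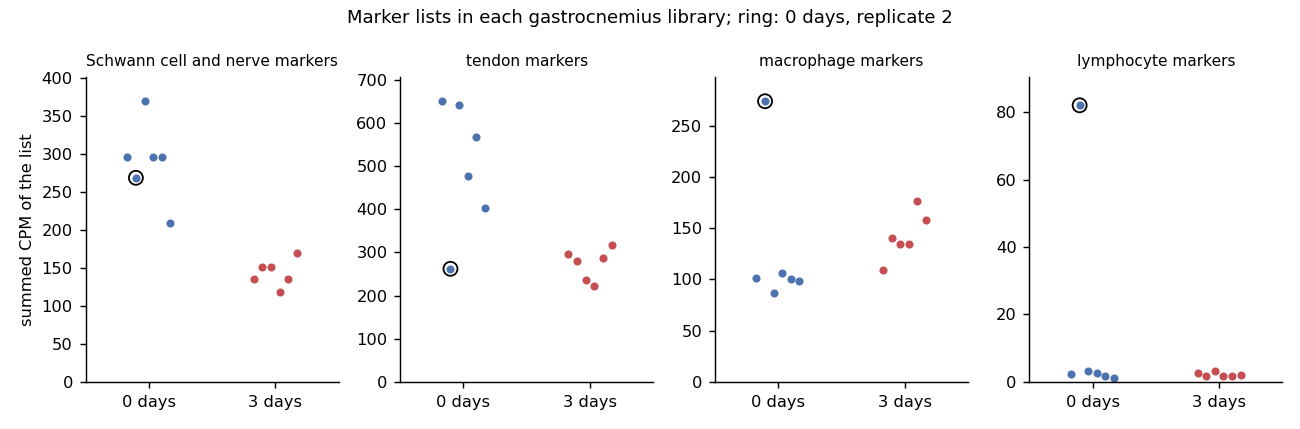
Summed level in CPM (vertical axes, from 0) of the Schwann cell, tendon, macrophage and lymphocyte markers in each of the 12 libraries, with replicate 2 of 0 days ringed. Schwann cell sums were 210 to 370 CPM at 0 days and 119 to 170 CPM at 3 days, and the ringed library is lowest for tendon and highest for macrophages (274 CPM) and lymphocytes (82.0 CPM).

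No member of the lists for capillary endothelium (15 tested), fibroblasts (14), adipocytes (16), macrophages (18), neutrophils (4) or lymphocytes (2) passed. The capillary endothelium markers still summed to 643 to 713 CPM at 0 days and to 544 to 631 CPM at 3 days, without overlap. Of these 15 genes 12 had a negative log2 fold change (median -0.15). In the 12 libraries alone 5 of them were lower and none higher, beside 9.1% lower of all genes. Macrophage markers summed to 86.8, 101 and 274 CPM at 0 days and to 109, 138 and 177 CPM at 3 days. Without replicate 2 the highest value of 0 days was 106 CPM, below every library of 3 days, the median log2 fold change of the list was 0.57 in place of 0.09, and 1 member was called. The median of the adipocyte markers was -0.43 with that library and 0.18 without it. Adipoq, adiponectin, picked after its values were seen, had 55.8 CPM there and a median of 9.12 CPM in its group. Of 12 smooth muscle and pericyte genes 1 fell, Acta2, smooth muscle actin, with 29.9, 38.4 and 48.2 CPM and then 20.4, 23.0 and 30.5 CPM (-0.70 ± 0.15, adjusted p = 0.0033). Of the 12, 11 had a negative log2 fold change (median -0.30, or -0.17 with offsets for GC content and length). In the 12 libraries alone 6 of these genes were lower and none higher. The list summed to 3530 to 4280 CPM at 0 days, or 3900 to 4280 CPM without replicate 2, and to 3330 to 3550 CPM at 3 days. Red cell markers, with no call, summed to 259 to 301 CPM at 0 days and to 309 to 403 CPM at 3 days, without overlap, and the skin (4 tested), liver and gut (2) and myofibre (16) lists held no call.

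Clock genes held few calls. None of 17 core clock genes passed (median -0.19), but 2 rose with offsets for GC content and length (median -0.05), and in the 12 libraries alone 2 were higher and 7 lower of 16. Arntl, which encodes BMAL1, had 0.41 (adjusted p = 0.082), Per1 -0.78, Per2 -0.77, Per3 -0.45, Cry1 -0.24, Nr1d1 0.12, Nr1d2 0.10 and Npas2 0.05. Of 17 clock output genes 1 rose, Tfrc, described above, and 1 fell; Dbp had -0.39. The one that fell was Ciart, a repressor of the clock (chromosome 3, 95878503 to 95882251, minus strand), with 7.84, 13.1 and 20.3 CPM and then 3.25, 7.49 and 7.78 CPM. The groups lay just apart (-1.03 ± 0.28, adjusted p = 0.033), and the call was lost without replicate 3, 4 or 6 of 0 days or 1, 3 or 5 of 3 days, at adjusted p up to 0.13.

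The promoter of Ciart is shown because it holds 3 copies of the E-box CACGTG, to which clock proteins bind. The sequence is the 250 bases before its RefSeq start site, chr3:95882229-95882478 on the minus strand of GRCm38.p6, with the E-boxes in capitals.
Ciart: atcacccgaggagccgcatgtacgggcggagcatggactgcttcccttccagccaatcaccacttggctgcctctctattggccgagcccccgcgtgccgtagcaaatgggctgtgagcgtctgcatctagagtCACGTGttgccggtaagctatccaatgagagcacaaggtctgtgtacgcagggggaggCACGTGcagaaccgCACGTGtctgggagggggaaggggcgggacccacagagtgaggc
The copies began 116, 58 and 44 bases before the start site. A CACGTG was in 8.97% of the windows of genes that rose, 9.62% of those that fell and 7.15% of all windows, so its share among called genes was near that of all.

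Other regulated groups held few calls. Of 24 immediate early genes 2 fell and none rose (median -0.40), namely Ccn2, described above, and Nr4a1, an orphan nuclear receptor (-0.72 ± 0.21, adjusted p = 0.045, lost in 7 of the 12 fits with 1 library fewer). Fos had -0.35 and Egr1 0.26. None of 24 glucocorticoid targets passed (median -0.29): Fkbp5 had 0.22, Klf15 -0.33, Mt1 0.05 and Mt2 0.02. Of 25 genes of atrophy and protein breakdown 1 fell, the ubiquitin ligase subunit gene Fbxo31 (-0.54 ± 0.16, adjusted p = 0.046, lost in 9 of the 12 fits). The ligase genes Fbxo32 (0.05) and Trim63 (-0.08) did not pass. Of 18 hypoxia targets 1 fell, Ndrg1, by 0.47 on the log2 scale (adjusted p = 0.0048). Single calls also stood among 24 glycogen genes, where the branching enzyme gene Gbe1 had -0.32 (adjusted p = 0.043, lost in 10 of the 12 fits), and among 18 cell division genes, where the cyclin gene Ccna2 had 0.86 (adjusted p = 0.04, lost in 11). The heat-inducible Hspa1a, which shares reads with its near-identical copy, had -0.24, and no call was made among 26 interferon response genes or 17 cytokines and chemokines.

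The neighbouring time points place these changes. Between 1 day and 3 days 13 genes rose and 48 fell (0.466% of 13104), between 0 days and 1 day 20 rose and 22 fell (0.321%), and between 3 days and 1 week none passed (0.0%). In the last pair 357 genes had an unadjusted p under 0.05 by edgeR, and 10 were called by DESeq2. Single libraries moved these counts: the 61 calls between 1 and 3 days were 36 and 22 without replicates 1 and 6 of 1 day and 40 and 38 without replicates 4 and 5 of 3 days. The 42 calls between 0 days and 1 day were 15 and 17 without replicates 4 and 6 of 0 days and 16, 26 and 19 without replicates 3, 5 and 6 of 1 day. These comparisons share libraries of 1 day or 3 days with each other and of 0 or 3 days with the comparison above, so only their own values are given. Replicates 1 and 6 of 1 day differed from the rest of their group by a chi-square per degree of freedom of 30.661 to 74.145. Among that rest it was 5.092 to 11.693. For replicate 6 of 1 week the values were 110.782 to 126.143, against 3.788 to 7.287 among the rest of its group. Of the 11 Schwann cell markers none was called at 1 day against 0 days (median -0.25) and 3 fell at 3 days against 1 day (median -0.81). For the 10 tendon markers the counts were also none and 3 (medians 0.04 and -0.76). Pmp22 had -0.10 at 1 day against 0 days and -0.81 ± 0.16 at 3 days against 1 day, and Fmod -0.11 and -1.32.

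Genes that rose divided otherwise. Tmx2 had a log2 fold change of 0.69 at 1 day against 0 days (adjusted p = 2.8e-06) and 0.02 at 3 days against 1 day. Slc38a4 had 0.59 (adjusted p = 0.028) and 0.15, whereas Sgcd had 0.20 and 0.63 (adjusted p = 0.027) and Ctnna3 0.01 and 0.75 (adjusted p = 0.0044). Decr1 had 83.8 ± 6.57 CPM (mean ± SD, n = 6) at 0 days, 89.0 to 111 CPM at 1 day, 121 ± 10.6 CPM at 3 days and 185 ± 28.0 CPM at 12 weeks. Ciart stood at 13.7 ± 4.22, 4.9 ± 1.74 and 6.7 ± 1.75 CPM at 0, 1 and 3 days and passed at 1 day too (-1.48, adjusted p = 0.0053).

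Some genes were low at 1 day alone among the first 3 time points. Fbxo32, a ligase of muscle protein breakdown, had 369 ± 63.1 CPM at 0 days, 205 ± 37.9 at 1 day and 383 ± 65.3 at 3 days, a change of -0.85 (adjusted p = 0.01) and then 0.90 (adjusted p = 0.0035). The splicing kinase gene Clk4 had 43.7 ± 4.59, 32.4 ± 3.01 and 46.1 ± 4.19 CPM (-0.43, adjusted p = 0.0014, then 0.51, adjusted p = 4.2e-05). Rps6ka1, a growth factor kinase gene, stayed at 9.42 ± 0.958 and 9.54 ± 0.775 CPM through 1 day and fell to 5.84 ± 1.15 CPM at 3 days (-0.71 against 1 day, adjusted p = 0.0022).

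**Figure D5:**
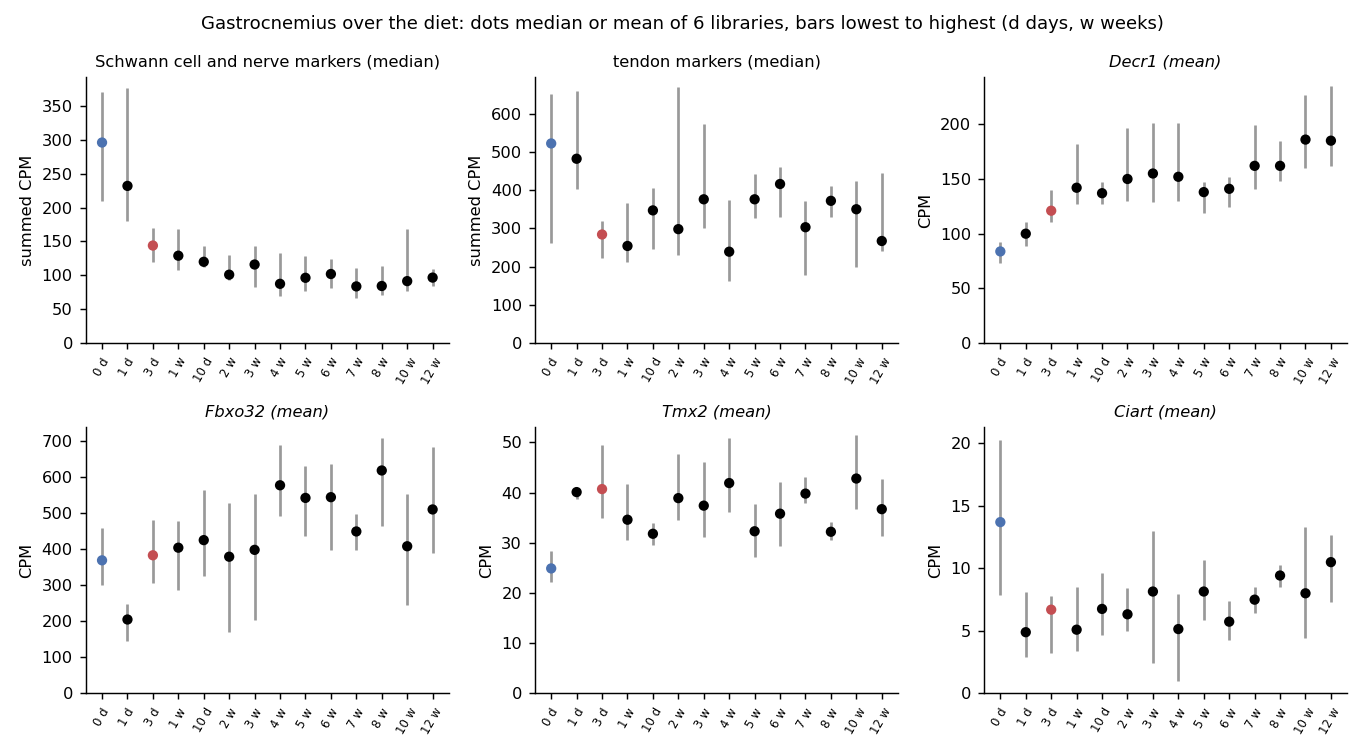
Levels in gastrocnemius at the 14 time points from 0 days to 12 weeks (horizontal axis). Dots are the median summed CPM of the Schwann cell and tendon markers or the mean CPM of Decr1, Fbxo32, Tmx2 and Ciart over 6 libraries, bars run from the lowest to the highest library, and 0 and 3 days are coloured. The Schwann cell sum has a median of 296 CPM at 0 days, 232 at 1 day, 144 at 3 days and 96.7 CPM at 12 weeks, and Fbxo32 dips to 205 CPM at 1 day.

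Soleus, the slow muscle beside the gastrocnemius, was compared over the same 3 days with its own 6 and 6 libraries. There 39 genes rose and 17 fell of 13501 (0.415%). The calls shared 8 genes, all in the same direction, which is 2.95% of the gastrocnemius calls and 14.3% of the soleus calls. Acot2, Etfdh, Hadhb, Plin5, Dnajc3, Pdia6 and the acetylcholine receptor subunit gene Chrna2 rose, and Sox9, a regulator of cartilage and tendon genes, fell. Chrna2 and Sox9 were picked after their values were seen. In gastrocnemius Chrna2 had 0.624, 1.25 and 2.05 CPM and then 1.47, 2.90 and 3.62 CPM (1.20 ± 0.24, adjusted p = 0.0024), with an overlap, and in soleus its log2 fold change was 1.98 (adjusted p = 3.3e-10). Plin5 had 0.76 in gastrocnemius and 0.98 in soleus, Dnajc3 0.36 and 0.47, and Hadhb 0.41 and 0.55. The Sox9 call (-0.86, adjusted p = 0.049) was lost in 9 of the 12 gastrocnemius fits with 1 library fewer.

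A direct test of the difference between the muscles found no gene that passed of 13501 (0.0%, edgeR interaction, with 543 at an unadjusted p under 0.05 and 49 called by voom). Nothing above can therefore be called particular to gastrocnemius. The smallest adjusted p values among the genes named were 0.29 for Sypl2, a protein of the calcium release junction (0.32 in gastrocnemius, -0.40 in soleus), and 0.33 for Nr1d1 (0.12 and -1.03). The gastrocnemius call of Sypl2 (adjusted p = 0.014) was lost without replicate 4 of 0 days or replicate 3 or 6 of 3 days, at adjusted p up to 0.063. Of 28 fatty acid oxidation genes 5 rose in soleus (median 0.48, against 0.35 in gastrocnemius) and of 17 PPAR targets 4 rose (0.38, against 0.02). Schwann cell markers had no call in soleus and a median of 0.41, against -1.02. Pmp22 had 0.19 there, with 46.0 to 89.8 CPM at 0 days and 40.5 to 189 CPM at 3 days. Tendon markers had no call in soleus and a median of -0.40, against -0.84. The 34 nuclear genes of the respiratory chain had a median of -0.06 in soleus against 0.30.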

How the data were processed

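Poly(A) RNA was sequenced from strand-specific libraries, per the labels' protocols. The deposited table holds raw read counts per gene symbol, made by the authors; per the submitters' processing notes the tools were HISAT2 2.1.0, featureCounts 1.6.3, SAMtools 1.9, Trimmomatic 0.38 and FastQC 0.11.7, with mm10 (GRCm38) as build. Which annotation and strand setting featureCounts used is not given in the sources used here; overlapping genes may share reads. Of 20646 symbols 20606 matched GENCODE M21, which gave coordinates. Columns of other organs (936) were not used.

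All 84 gastrocnemius libraries were fitted with 1 coefficient per time point by edgeR 4.0.16 (filterByExpr, TMM, glmQLFit, glmQLFTest, two-sided) in R 4.3.3, and p-values were adjusted by Benjamini and Hochberg over all genes of a comparison, with 0.05 as threshold. Standard errors were taken as the fold change (log2) divided by the root of its F statistic. The difference from soleus used 1 fit of 168 libraries. CPM uses TMM-scaled totals; at the median depth a gene at 1 CPM has about 16 counts, which limits low genes. Replicates differed beyond sampling noise (lowest chi-square per degree of freedom 4.811). Libraries were treated as unpaired in the main fit, and whether equal replicate numbers belong together is not known.

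Genes named were the 10 highest and 10 lowest log2 fold changes among called genes with a mean of at least 5 CPM, the 5 smallest p per direction, the 4 smallest p of each of 44 lists (31 pathways, 13 cell types), the 5 smallest p per direction of the other comparisons, and 31 genes given whatever their values; of these the text gives those that show a group, and some are not reported here. The comparison, members and lists were chosen with earlier results of these data known. Alternatives were RLE size factors, no filter, DESeq2 1.42.0, voom with quality weights (limma 3.58.1), a block for the replicate number, the groups alone, spline offsets for length and GC content, each library left out, and, added after the data were seen, the fit without 4 libraries of other time points with over 20% mitochondrial counts and the muscle difference without replicate 2 of 0 days. Fits were tested on simulated counts. Promoters are RefSeq's on GRCm38.p6. Python 3.11.15, pandas 2.3.3, numpy 2.4.6 and matplotlib 3.10.9 made tables and plots.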

Additional observations from a re-analysis of the deposited data

Results flagged for a closer look

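Of 220 groups of 6 values tested, 22 had a highest or lowest library whose gap to the nearest other was large for the group's range (Dixon's 95% limit); chance does this in about 1 in 20 groups. In 8 of the 22 that library was replicate 2 of 0 days. It had the highest summed level of macrophage markers (274 CPM), neutrophil markers (14.1 CPM) and lymphocyte markers (82.0 CPM) in its group, the highest Angptl4 (15.5 CPM) and Adipoq (55.8 CPM), and the lowest Slc2a4 (414 CPM), S100b (1.54 CPM) and Angptl7 (28.8 CPM).

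Other libraries of 0 days stood apart in single genes. Replicate 6 was highest for Slc30a2 (24.8 CPM), Mt1 (74.3 CPM), Mt2 (64.9 CPM) and Clk4 (52.6 CPM), replicate 3 for Mal (10.8 CPM) and Myh1 (7690 CPM), and replicate 1 for Kcnf1 (9.08 CPM), while replicate 4 was lowest for Sgcd (8.41 CPM). At 3 days replicate 1 was lowest for Ucp3 (194 CPM) and Ciart (3.25 CPM), replicate 5 lowest for Sgcd (13.3 CPM), replicate 3 highest for Slc38a4 (260 CPM) and Adipoq (23.4 CPM), and replicate 6 highest for Kcnf1 (32.3 CPM).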

How the results depend on the processing

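The gastrocnemius calls, 3 days against 0 days (271), numbered 2277 in the 2 groups alone, 447 by DESeq2, 1240 without the 4 libraries of other time points with over 20% mitochondrial counts, 2571 by voom and 125 to 257 with 1 library left out (160 and 171 without replicates 4 and 6 of 0 days, 125 and 172 without replicates 3 and 5 of 3 days). Gastrocnemius calls, 3 days against 1 day (61), numbered 115, 151, 675 and 916 under the same 4 settings and 22 to 72 with 1 library left out. Gastrocnemius calls, 3 days against 1 week (0), numbered 1 in the 2 groups alone, 10 by DESeq2, 4 with GC and length offsets, 1 with RLE size factors, 26 without the 4 libraries, 117 by voom and 0 to 2 with 1 library left out. Gastrocnemius calls, 1 day against 0 days (42), numbered 86 by DESeq2, 78 with offsets, 24 without a filter, 254 without the 4 libraries, 469 by voom and 15 to 53 with 1 library left out. The soleus calls, 3 days against 0 days (56), numbered 9 in the 4 groups alone, 37 without a filter and 492 by voom, and the difference of the 3 day change between gastrocnemius and soleus (0) 49 by voom and 0 without replicate 2 of 0 days, the single library left out there. With the replicate number as a block the counts were 331 (86 higher, 245 lower) for 3 days against 0 days. They were 1 for 3 days against 1 week and 2 for the muscle difference. Same-numbered libraries of 0 and 3 days correlated at 0.009 to 0.164, and 4 of 6 correlated best with their own number. These values do not settle whether equal numbers mark libraries that belong together. Of the 97 genes with values in the text, 13 lost their call with GC and length offsets (Acadl, Hadhb, Etfdh, Acot2, Prodh, Oplah, Dnaja1, Casq1, Casq2, Sorl1, Nr4a1, Fbxo31 and Sox9), 3 with RLE size factors (S100b, Nr4a1 and Sox9) and 6 without a filter (Gbe1, Casq1, S100b, Nr4a1, Fbxo31 and Sox9); none lost it by DESeq2, by voom, with the block or in the 2 groups alone, where Npas2 was not tested. Changes of sign were seen in genes that did not pass: by voom Pdk4 had -0.01, Ucp3 -0.07, Fbxo32 -0.02, Fos 0.85, Hspa1a 0.04 and Adipoq 0.39, and with offsets Myh4 had 0.02, Mt1 -0.06, Mt2 -0.17 and Clk4 -0.04. With 1 library left out Adipoq ranged from -0.41 to 0.71, Fbxo32 from -0.02 to 0.15, Fos from -0.71 to 0.21, Hspa1a from -0.79 to 0.25, Mt1 from -0.11 to 0.54, Mt2 from -0.19 to 0.66, Npas2 from -0.25 to 0.28, Trim63 from -0.19 to 0.16 and Ucp3 from -0.08 to 0.12. The causes were not tested.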
